A study of Mus musculus with 2 samples.

Results

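The microRNA genes with registry numbers from Mir6896 to Mir7094 were examined in small RNA libraries of mouse hippocampus. They were chosen by symbol alone, as the rows of the count tables whose Ensembl gene identifier has a GENCODE M21 symbol in that range, with or without a suffix. This gave 201 of 2202 microRNA genes. The number 6967 had no gene with such a symbol. Both libraries belonged to 1 group of 14-day-old female B6CASTF1/J mice, the first-generation cross of C57BL/6J and CAST/EiJ, with no treatment given. Each of the 2 biological replicates was labelled with 3 females and had 1 library of small RNA, so a library stands for a pool, and the label names a layer of the hippocampus without saying which.

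A canonical microRNA is cut out of its primary transcript as a hairpin by Drosha and then trimmed by Dicer to a duplex of a 5p and a 3p arm. A mirtron takes another route: the splicing machinery cuts 1 or both ends of the hairpin, because the hairpin is itself an intron or the end of one. Where the intron continues beyond the hairpin on 1 side, that tail has to be trimmed away, and such genes are called tailed mirtrons. Introns begin with GU and end with AG after a pyrimidine-rich stretch, so the sequence of a mirtron carries these splice signals.

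The hairpins of 5 detected members show both layouts. They are taken from RefSeq (GRCm38.p6), are written 5′ to 3′, and have in capitals the splice-site bases that coincide with a hairpin end. In the first 3 the hairpin is the whole intron, and in the last 2 its last base alone is an intron end.
Mir7080: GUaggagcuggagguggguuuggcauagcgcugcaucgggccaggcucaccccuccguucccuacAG
Mir6944: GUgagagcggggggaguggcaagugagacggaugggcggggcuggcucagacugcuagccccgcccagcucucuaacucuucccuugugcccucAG
Mir7068: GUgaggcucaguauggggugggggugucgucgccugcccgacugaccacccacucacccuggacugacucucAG
Mir7044: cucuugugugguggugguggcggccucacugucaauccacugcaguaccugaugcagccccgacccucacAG
Mir7066: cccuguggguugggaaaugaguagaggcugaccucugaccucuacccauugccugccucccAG

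The label of the block as short-intron candidates held in part. Of the 201 members 191 had at least 1 precursor end within 5 bases of an intron end of a same-strand M21 transcript, against 46 of 2001 other microRNA genes (2.30%). That label was known beforehand, so the contrast with other genes is a description and not separate support for it. In 187 of the 191 the end concerned was the 3′ end of the intron, in 186 of them to the base. In 15 members the precursor filled the intron, with intron lengths from 67 to 137 bases and a median of 83. The other 176 met 1 intron end only, and 172 of these met the 3′ one, which leaves a 5′ tail. Mir6977, Mir6927, Mir6936 and Mir6973b met the 5′ end alone. The introns of the 176 were not short as a rule: they ran from 66 to 36269 bases with a median of 545, 31 were at most 100 bases long and 61 were longer than 1000.

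The remaining 10 members met no intron end under this limit. In 7 of them the 3′ end of the precursor lay 6 or 7 bases beyond the intron, in the next exon. Mir7051 stopped 9 bases short of the end of its intron in Etfb, Mir7036b lay well inside an intron of Add1, and Mir7025 overlapped an exon of Pdgfra. The intron that fitted best among all annotated transcripts was used. An exon of some same-strand transcript is overlapped by 41 of the 201 members, 31 of them among the 191 at an intron end.

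**Figure D1:**
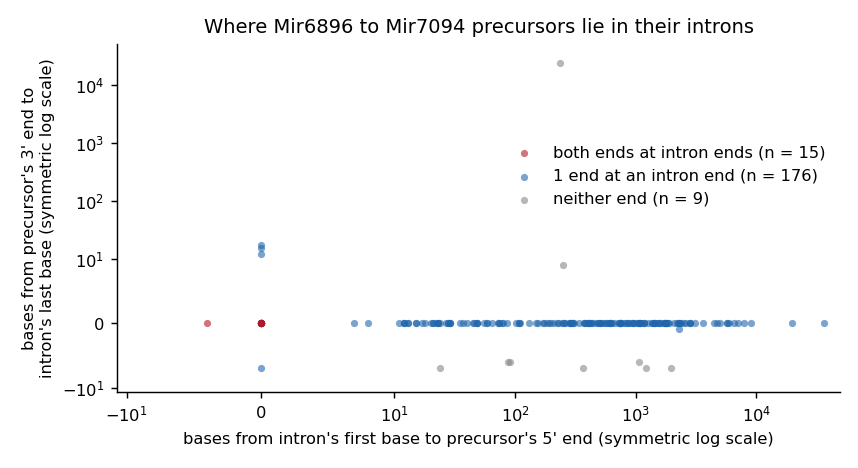
Distance in bases from the first base of the host intron to the 5′ end of the precursor (x axis) and from the 3′ end of the precursor to the last base of the intron (y axis), both on symmetric log scales; each point is 1 member, and Mir7025 has no intron to plot. Most members lie on the line at 0 on the y axis, and the 15 that fill their intron lie at or next to 0 on both axes.

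Splice signals were present in the sequences of most members, and they follow in part from position. A precursor that ends on the last base of its intron carries the AG of that intron. Such an end was found in 186 members and in 24 of the other genes, so the shares below are not separate support. Precursors ended in AG in 187 of 201 members (93.0%), against 7.40% of the 2001 other genes, and began with GU in 13 of the 15 that fill an intron. The last 22 bases of the precursor had a median pyrimidine share of 68.2% in the members and 50% in the other genes, and the first 22 bases a median G share of 45.5% against 27.3%. RefSeq lists mature sequences for 185 of the 201 members. Among 177 members with a 3p arm listed, 137 of the 3p sequences (77.4%) ended in AG, against 11.0% of 554 in other genes. Of 166 such arms in members that end with the intron to the base, 130 ended on the last intron base, 13 ended 1 base before it and 16 ended 2 bases before it.

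The values are sense-strand counts per precursor gene, so the products of the 2 arms cannot be told apart, and no member had more than 3 counts on the opposite strand in both libraries. Reads of mature arms cannot be told apart from other pieces of the host transcript either, since read lengths and positions were not examined. Replicate 1 had 4764797 sense counts in all microRNA genes and replicate 2 had 2852269, and a count of 0 allows a level of up to 0.630 and 1.05 CPM, the count scaled to these totals and not divided by length. In bulk tissue, fewer cells of a type and less RNA per cell cannot be told apart. The labelled tissue was checked on marker microRNAs. Of 12 neuronal genes 9 were detected, led by Mir132 and holding 2.55% and 2.60% of the counts. The astrocyte, oligodendrocyte, immune and vessel lists had 12 of their 13 genes detected. The 3 vessel genes held 1.596% and 2.035% of the counts. They were led by Mir126a at a mean of 13420 CPM, above Mir132 at 6070 CPM. Red blood cell, choroid plexus and ciliated cell, liver and muscle lists were detected in 9 of 14 genes. The muscle list was led by Mir206 at a mean of 54.2 CPM, and its Mir1a-1, Mir133a-1 and Mir133a-2 had no count. Several neuronal and muscle genes listed are numbered copies, and a read that maps to more than 1 gene can be counted in none. Multi-mapping reads were 40.8% and 37.2% of all reads in replicates 1 and 2. How far this lowered the lists and changed their order was not tested. Intervals and floors cover counting error only, since amplified reads without molecular identifiers are not independent molecules.

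Most members were counted, nearly all at a low level. Sense counts of members summed to 4184 in replicate 1 and 2853 in replicate 2. These are 0.0878% (exact 95% interval 0.0852 to 0.0905) and 0.100% (0.0964 to 0.104) of the counts, with a mean of 0.0939% ± 0.00864 (SD, n = 2). At least 1 count was found for 173 of 201 members (86.1%), and 135 had counts in both libraries. Detection, set at 10 counts in both libraries, was reached by 40 members (19.9%), beside 18.6% of all 2202 microRNA genes. With no count in either library stood 28 members (13.9%), beside 64.2% of all genes. The other 133 members lay in between, with counts but under 10 in at least 1 library.

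Among genes with any count, the median of the summed count over both libraries was 10 for the members and 102 for all genes outside the block. That low value was shared with the nearest blocks: it was 17 from Mir5000 to Mir6895 and 8.5 above Mir7094, and it was 5.5 for genes with no Mir number. No member had a mean of 500 CPM or more, a level reached by 139 other genes. The median of detected members was 5.38 CPM, and that of 369 detected genes outside the block was 178 CPM. A run of 20 bases shared with another microRNA gene, which can turn a read into a multi-mapping one that is counted in no gene, was found in 4 of the 201 members and in 1083 of the 2001 others. Among genes without such a run, 171 of 197 members (86.8%) and 478 of 918 others (52.1%) had a count, and 39 (19.8%) and 286 (31.2%) were detected. The part of multi-mapping in these shares was not tested further.

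By registry number, the blocks on either side had a lower share of genes with a count. Of the 154 genes from Mir5000 to Mir6895, 27.3% had a count and 9.09% were detected. Genes above Mir7094 numbered 115, of which 50.4% had a count and 11.3% were detected. In the oldest block, Mir1 to Mir999, 66.5% of 514 genes had a count and 51.6% were detected. These shares are descriptions, and no test of their differences was made. The 46 genes outside the block that meet an intron end had counts in 37 cases (80.4%) and were detected in 22 (47.8%).

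**Figure D2:**
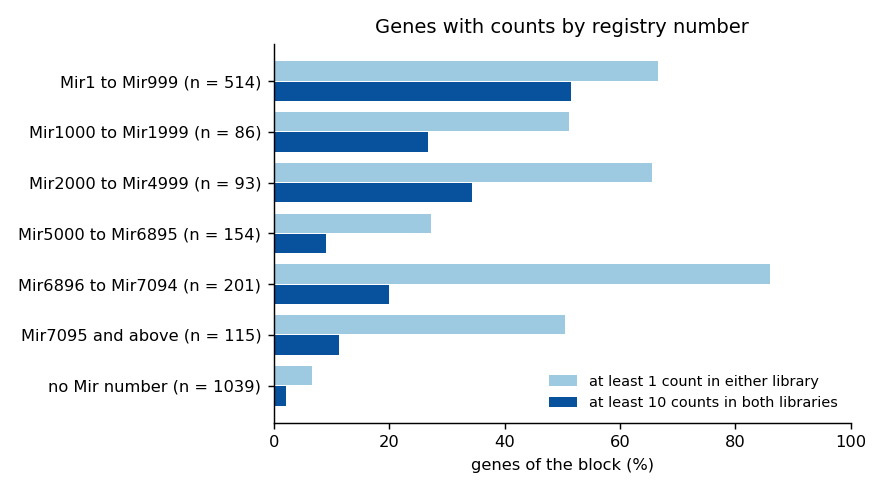
Share of microRNA genes (%, x axis) with at least 1 sense count in either library (light bars) and with at least 10 in both (dark bars), by block of registry numbers (y axis, number of genes in brackets). Mir6896 to Mir7094 has a light bar at 86.1% and a dark bar at 19.9%.

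The most abundant member was Mir7080 (ENSMUSG00000098582.1), at chromosome 8, 123130106 to 123130172 of GRCm38, on the plus strand. Its precursor is the whole 67-base intron of a transcript of Cpne7, which encodes a copine, a calcium-dependent membrane-binding protein, and it overlaps an exon of another transcript. It had 1644 counts in replicate 1 and 1025 in replicate 2, or 345 and 359 CPM. The mean of 352 ± 10.1 CPM (SD, n = 2) put it at rank 157 of all 2202 genes. This 1 gene held 39.3% of the members' counts in replicate 1 and 35.9% in replicate 2.

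Second came Mir6944 (ENSMUSG00000098341.1), at chromosome 13, 55477681 to 55477776, on the minus strand. It is a 96-base intron of Dbn1, which encodes drebrin, an actin-binding protein of dendritic spines. Counts were 443 and 463, which make 93.0 and 162 CPM, a mean of 128 ± 49.0 CPM (SD, n = 2). Its level in CPM was higher in replicate 2, by more than that of Mir7080. Together these genes held 49.9% and 52.2% of the members' counts.

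Mature sequences of these genes are given with the seed, bases 2 to 8, in capitals, since the seed sets which messenger RNAs a microRNA can pair with. In both genes the 5p arm begins at the first base of the intron. The 3p arm of Mir6944 runs to the last base of the intron, and that of Mir7080 stops before it.
miR-7080-5p: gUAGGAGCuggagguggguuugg
miR-7080-3p: cAGGCUCAccccuccguucccu
miR-6944-5p: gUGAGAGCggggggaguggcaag
miR-6944-3p: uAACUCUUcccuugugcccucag

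The rest of the members that fill an intron were far less abundant. Mir7070, in Fbxw9, had 48 and 40 counts. Mir7068, in Cherp, a gene for a protein of calcium homeostasis, had 27 and 10. Mir6970, in the RNA helicase gene Skiv2l, had 23 and 10 counts and shares a run of at least 20 bases with another microRNA gene, so its count is uncertain. Mir6958, in Dennd6b, had 14 and 11 and closes the list of 6 detected genes among these 15. Mir7082, Mir7018, Mir6974, Mir7060 and Mir7091 had from 2 to 10 counts in all, and Mir6923, Mir6981, Mir7058 and Mir7088 had none. The whole class thus held 52.9% and 54.7% of the members' counts, but 3.06% and 2.59% without Mir7080 and Mir6944.

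Most detected members were tailed, as were most members of the block. Of the 15 that fill an intron, 6 (40%) were detected. Of the 176 that meet 1 intron end, 34 (19.3%) were detected, 154 had a count, and the median summed count was 8. The members that fill an intron had a median summed count of 3. No member of the remaining 10 was detected, and these had 16 counts or fewer in all. By intron length, detection among the 191 members at an intron end was 11 of 44 for introns of at most 100 bases, 6 of 33 for those over 100 and up to 300, 10 of 53 for those over 300 and up to 1000, and 13 of 61 beyond 1000. Across these 191 genes, which share the libraries and are not independent replicates, Spearman's rho with mean CPM was 0.0060 for intron length and 0.26 for GC content. Median GC content was 61.5% in the 40 detected members, 57.1% in all members and 54.6% in those without a count.

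Leading the tailed members, Mir7044 lies at the end of a 705-base intron of Rasgef1a, an exchange factor gene for small GTPases. It had 104 and 86 counts, or 21.8 and 30.2 CPM. Mir7066 ends a 1420-base intron of Ncan, the gene of the brain matrix proteoglycan neurocan, and had 73 and 56 counts (15.3 and 19.6 CPM). Mir7044 was above Mir7066 in both libraries, and the level of Mir7044 in replicate 1 was within 3 CPM of that of Mir7066 in replicate 2.

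Next by summed count were 3 members at 11 to 19 CPM, whose order changed between the libraries. They were not alone in that range, where Mir6953 also lay, at 11.1 and 12.3 CPM. Mir7059, in the lysosomal gene Cln3, had 83 and 34 counts (17.4 and 11.9 CPM). Mir7004, in the phospholipid flippase gene Atp9a, had 53 and 54 (11.1 and 18.9 CPM). Mir6982, in Camk2a, the kinase abundant at excitatory synapses, had 61 and 37 (12.8 and 13.0 CPM). Mir7059 was above the other 2 in replicate 1 and below them in replicate 2.

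Mir6900, in the respiratory chain gene Ndufa10, had 49 and 43 counts, and Mir7069, in the phenylalanine tRNA synthetase gene Farsa, had 71 and 19. Mir6953, in Grina, a gene for a protein first tied to NMDA receptors, had 53 and 35. Mir6934 in Tbc1d16, Mir7083 in Dock6, Mir6990 in the nuclear receptor gene Esrra and Mir6994 in Patl1 had from 42 to 56 counts in replicate 1 and from 24 to 35 in replicate 2. A further 21 detected members had at most 31 counts in either library. They are Mir7046, Mir6945, Mir6906, Mir6897, Mir6986, Mir6915, Mir7063, Mir6940, Mir7019, Mir6918, Mir7073, Mir6989, Mir6971, Mir6907, Mir6928, Mir6985, Mir7031, Mir6968, Mir7016, Mir6912 and Mir6979. At the detection limit, with 10 counts in the lower library, were Mir6979 (13 and 10), Mir7031 (17 and 10), Mir6971 (20 and 10), Mir6970 (23 and 10) and Mir7068 (27 and 10). With 9 in the lower library, 1 short of it, were Mir7000 (29 and 9), Mir7056 (9 and 15), Mir7055 (12 and 9), Mir7013 (9 and 10) and Mir7036 (10 and 9).

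**Figure D3:**
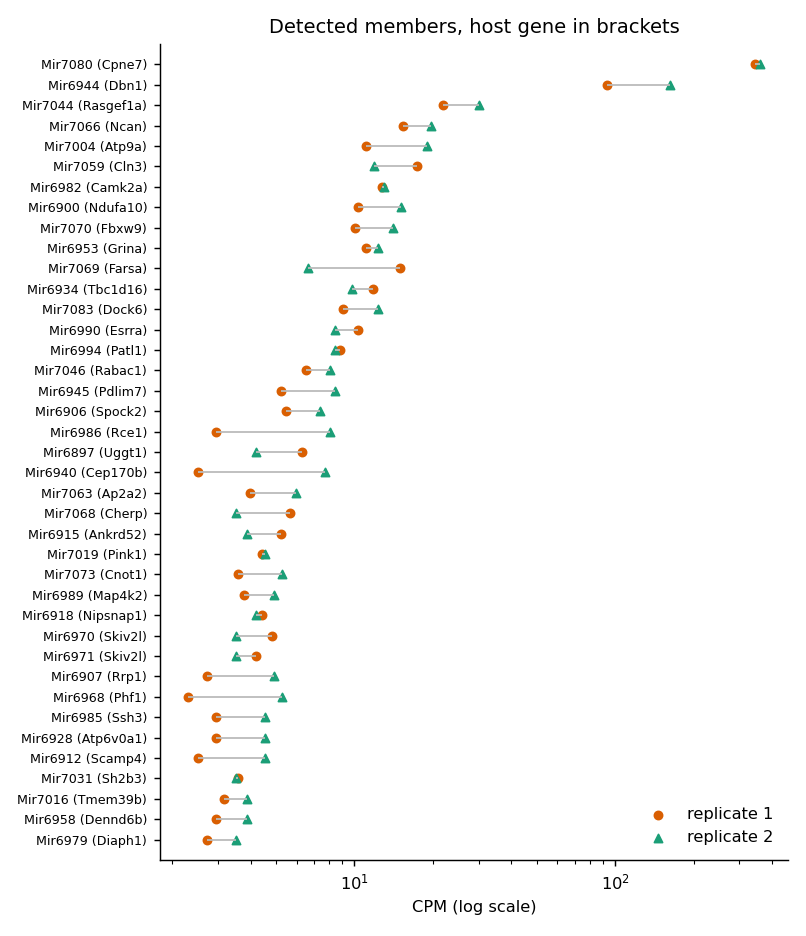
CPM (x axis, log scale) of 39 of the 40 detected members in replicate 1 (circles) and replicate 2 (triangles), joined by a line, ordered by mean CPM, with the host gene in brackets. Mir7080 and Mir6944 stand apart, and the other 37 lie between 2.31 and 30.2 CPM.

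The 28 members without a count were Mir6901, Mir6916, Mir6923, Mir6924, Mir6949, Mir6950, Mir6957, Mir6960, Mir6969, Mir6972, Mir6973a, Mir6981, Mir6992, Mir6995, Mir7001, Mir7003, Mir7005, Mir7006, Mir7040, Mir7057, Mir7058, Mir7072, Mir7076, Mir7088, Mir7089, Mir7092, Mir7094-1 and Mir7094-2. Host gene RNA was not measured in these libraries.

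The 3 earlier mirtrons Mir877, Mir1224 and Mir702 were each above every member but Mir7080 in both libraries. Mir877, an 85-base intron of Abcf1, had 2651 and 1098 counts, or 556 and 385 CPM. Mir1224, in Vwa5b2, had 366 and 209 CPM, and Mir702, in Plod3, had 245 and 323 CPM. Mir7080 lay between the lowest and the highest of the 3 in both libraries, above Mir1224 in replicate 2 and below it in replicate 1. Mir702 met 1 intron end only, but without a tail: its precursor of 109 bases starts before its intron of 102 bases. Outside the block 8 genes filled an intron, Mir877 and Mir1224 among them, and 7 were detected. Among these 8, Mir1981 and Mir3102 had means of 456 and 454 CPM, above that of Mir7080, though Mir3102 was below Mir7080 in replicate 2. The 8 were not all at a high level. Below Mir6944 were Mir3547 with a mean of 22.9 CPM, Gm24589 with 5.57 CPM, Mir1982 with 5.29 CPM and Gm27471 with no count.

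The 2 libraries were then compared gene by gene. For 52 members and 450 microRNA genes in all with a summed count of at least 20, the count in replicate 2 was set against that in replicate 1 by an exact binomial test on library sizes scaled by TMM, with Benjamini-Hochberg adjustment over the 450. This compares 2 libraries and not conditions, and with 1 library per pool a difference between animals cannot be told apart from one in library preparation. Of the members 9 were higher and 2 lower in replicate 2, and 41 did not pass. The 11 of 52 stand beside 64.9% of all genes tested, 32.9% higher and 32.0% lower, but the median summed count was 34 for the tested members and 543.5 for all genes tested. The median log2 ratio of replicate 2 to replicate 1 was 0.34 for the members and 0.0076 for all genes tested. Library sizes taken as total counts lower every ratio by 0.12.

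Mir6944 had the lowest adjusted p among the members, with a log2 ratio of 0.93 (95% counting interval 0.74 to 1.12, exact binomial test, adjusted p = 2.92e-21). For Mir7080 the ratio was 0.18 (0.067 to 0.29, exact binomial test, adjusted p = 0.00308), and it was 0.059 and did not pass with total counts as library sizes (adjusted p = 0.380, exact binomial test). Mir7044 at 0.59 (0.16 to 1.01), Mir7004 at 0.89 (0.32 to 1.46) and Mir6900 at 0.67 (0.049 to 1.30) were also higher in replicate 2. Among members with few counts, Mir6940 (12 and 22 counts), Mir6986 (14 and 23), Mir6968 (11 and 15) and Mir7056 (9 and 15) were higher, at 1.74, 1.58, 1.31 and 1.60. Mir6900 and Mir6968 no longer passed with total counts as library sizes (adjusted p = 0.0981 and 0.0624, exact binomial test).

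The members lower in replicate 2 were Mir7069, at -1.04 (-1.85 to -0.29), and Mir6997, in the spectrin gene Sptan1, at -1.66 (-3.65 to -0.11) on 23 and 4 counts. With no filter on low counts, 173 members were tested, and 11 were higher and 1 lower. The share of all genes called at this setting is not given here. Mir6997, Mir6900 and Mir6968 did not pass (adjusted p = 0.0673, 0.0732 and 0.0605, exact binomial test). Members under the filter that passed were Mir6913 (0 and 7 counts), Mir6955 (0 and 5), Mir7025 (4 and 12) and Mir7039 (3 and 12). Mir6913 and Mir6955 had no count in replicate 1 and so no finite ratio. The count shares of some marker lists differed between the libraries too. Choroid plexus and ciliated cell microRNAs held 0.395% in replicate 1 and 0.119% in replicate 2. Oligodendrocyte ones held 0.191% and 0.317%, and red blood cell ones 0.0290% and 0.0722%. The neuronal (2.55% and 2.60%), astrocyte (0.1745% and 0.1845%) and immune lists (0.114% and 0.0931%) differed less. These are shares of microRNA counts and not of cells. The part of these lists in the differences of the members was not tested.

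**Figure D4:**
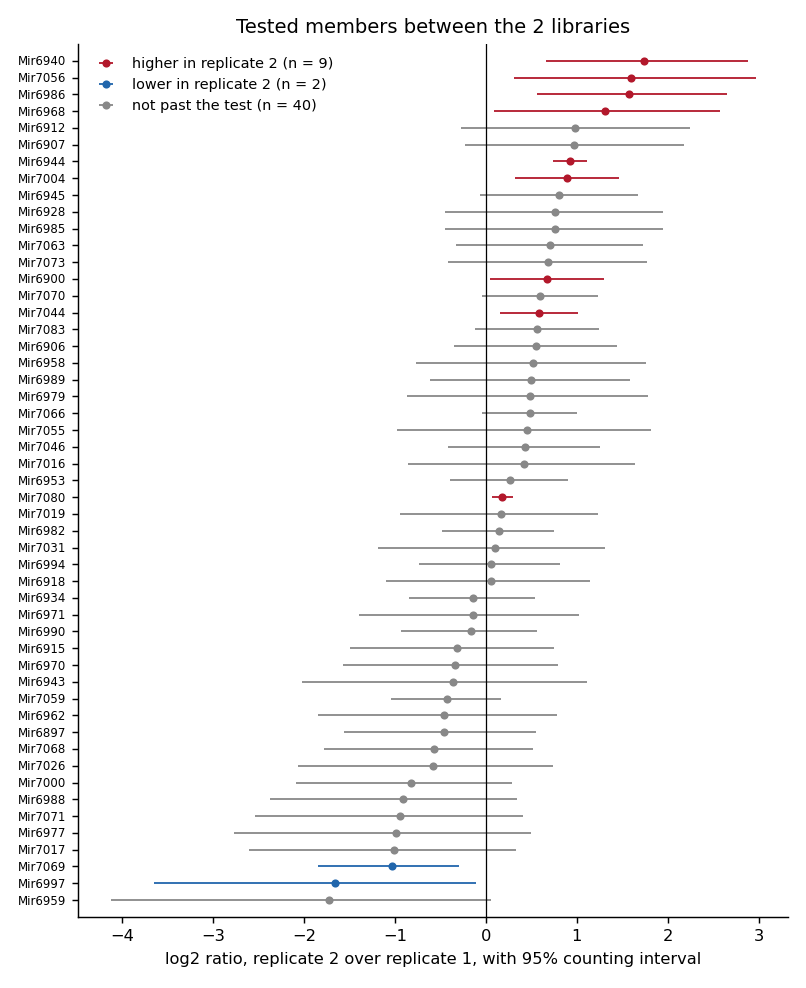
Log2 ratio of replicate 2 to replicate 1 (x axis) for 51 of the 52 members with a summed count of at least 20, with 95% counting intervals; red marks the 9 higher and blue the 2 lower in replicate 2, and grey 40 that did not pass the exact binomial test. Intervals are narrow for Mir7080 and Mir6944 and span over 1 log2 unit for most others.

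The order of the members was similar in the 2 libraries, with a Spearman's rho of CPM across genes of 0.82 over all 201 members and 0.73 over the 40 detected ones, which share the libraries and are not independent replicates. Mir7080, Mir6944 and Mir7044 held ranks 1 to 3 of the members in each library. Presence at the low end was less stable: 24 members had counts in replicate 1 only and 14 in replicate 2 only. At least 10 counts were reached in replicate 1 only by 22 members and in replicate 2 only by 4, beside the greater depth of replicate 1. These counts were made for the members alone, so no comparison with other genes is drawn.

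**Figure D5:**
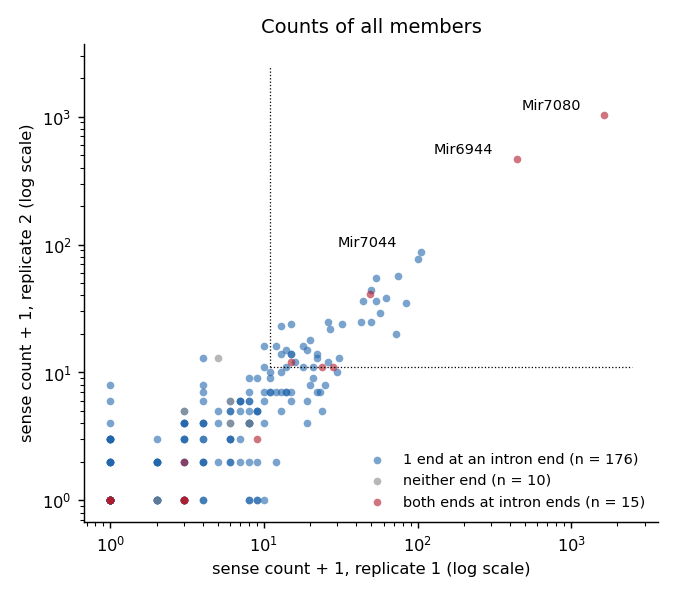
Sense count + 1 of each of the 201 members in replicate 1 (x axis) and replicate 2 (y axis), both on log scales, coloured by how the precursor meets its intron; dotted lines mark 10 counts. The 40 detected members lie in the upper right corner, and Mir7080 and Mir6944, both red, are its far points.

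Seeds were nearly all different. The 354 mature sequences of the members hold 325 distinct seeds, of which 25 occur in at least 2 members. Of the 68 seeds in the 35 detected members with a RefSeq entry, a single one was shared by 2 detected members, Mir6907 and Mir7019, in their 5p arms. Mir6982, Mir6953, Mir6970, Mir6971 and Mir6979 have no entry. The pair is shown because it is the only such match among detected members, and the 2 sequences differ beyond the seed.
miR-6907-5p: uUCUGGGAcacagggaggcucg
miR-7019-5p: aUCUGGGAggggcugucaggagu
The hosts are the ribosome biogenesis gene Rrp1, for Mir6907 with 13 and 14 counts, and Pink1, a mitochondrial kinase gene, for Mir7019 with 21 and 13. Seeds of detected members recurred in a detected gene outside the block in 7 cases, among them the 3p arm of Mir7069 with that of Mir18 and the 5p arm of Mir6958 with the 3p arms of Mir30c-1 and Mir30c-2. Since arms were not counted apart, these matches say nothing of which arm was present.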

How the data were processed

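The authors deposited unnormalised counts for each microRNA gene, made on mm10 (GRCm38) with GENCODE M21 per the accompanying text. Aligner and counter: not given in the sources used here. The 3 count columns have no header: they were read as unstranded and as the 2 strands, an assumption from their values, and the strand whose column summed higher served as sense. Lines of reads in no gene were left out: 36.1% and 36.4% of 13195465 and 7838361 reads were assigned. CPM, positions against M21 introns and sequence features were computed here with Python 3.11.15, pandas 2.3.3 and scipy 1.17.1. Scaling used TMM of edgeR 4.0.16 and, as an alternative, DESeq2 1.42.0 (R 4.3.3). The binomial step was checked on simulated data. Shares have exact Clopper-Pearson intervals at 95%.

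The members, marker lists and tests were chosen with earlier results of these data known. Genes named by rule were the 25 members with the highest summed count and all detected members, 41 in all, with Mir877, Mir1224 and Mir702 as earlier mirtrons. Members without a count, Mir6997, Mir7056, other genes that fill an intron and those named for position or few counts were picked after values were seen. Replicates were separate pools per the labels. Alignments and signal tracks are not analysed here. A single detected member enters the counts and summaries but is not reported here by name.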

Additional observations from a re-analysis of the deposited data

How the results depend on the processing

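The count of detected members, 40 at 10 counts, depended on the limit: it was 135 at 1 count, 100 at 3, 72 at 5, 18 at 20 and 19 at 5 CPM in both libraries. On 1 library it was 44 (without replicate 1) or 62 (without replicate 2), and members without counts then numbered from 42 to 52 in place of 28. The share of counts, 0.0939%, ranged from 0.0878% to 0.100% on 1 library, and was 0.105% with the most abundant gene left out of the total. It was 0.0587% without Mir7080 and 0.0459% without Mir7080 and Mir6944, alternatives chosen after seeing the data. Members past the test numbered 11, against 6 at an adjusted p under 0.01 and 2 with a summed count of at least 200, where only 2 were tested. Total counts as library sizes turned the sign of Mir6994 (-0.067), Mir6918 (-0.067) and Mir7031 (-0.025), none of which passed. Thinning, the unstranded column, DESeq2 size factors, dropping members with shared bases and other distances from the intron end left each count within 1.5 times its value. No member overlaps another microRNA gene. No paired analysis was possible because there is 1 group. At this depth 121 members had a summed count from 1 to 19, under the 20 needed for the test. Depth and low abundance cannot be told apart for them.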

Other observations

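There are 5 hosts that hold 2 members each. The pair differed in Ankrd52, where Mir6915 had 25 and 11 counts in replicates 1 and 2 and Mir6914 had 2 and 4. In Skiv2l the values were close: Mir6970, which fills its intron, had 23 and 10, and Mir6971, which has a tail, had 20 and 10. The count of Mir6970 is uncertain, because it shares a run of at least 20 bases with another microRNA gene. Srebf1, a regulator of lipid synthesis, holds Mir6921 with 5 and 2 counts and Mir6922 with 2 and 3. Cmip holds Mir7078 with 7 and 3 and Mir7077 with 3 and 2, and Arap3 holds Mir6980 with 3 and 1 and Mir6981 with none. The members lie on 20 chromosomes, with 19 each on chromosomes 7 and 11. Of these, 4 were detected on chromosome 7 and 3 on chromosome 11. On chromosome 5, 1 of 17 was detected, on chromosome 8, 6 of 16, on chromosome 19, 5 of 12, and on chromosome 3, none of 8. Over all members 19.9% were detected, and differences between chromosomes were not tested.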
